A study of Bos taurus with 10 samples.

Results

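Retinoic acid, the active form of vitamin A, was followed through the genes that make it and remove it in 2 fat depots of cattle. Of 8 genes listed by symbol, 7 had values among the 12674 genes of the table (RBP4, RDH10, DHRS3, ALDH1A1, ALDH1A2, CYP26B1 and CRABP2), and all 7 passed the filter on low counts. STRA6, the cell surface receptor for the retinol carrier RBP4, was not analysed here. RNA was sequenced from intramuscular fat, the marbling between muscle fibres, and from subcutaneous fat, the layer under the skin. Each depot gave 5 libraries, numbered 1 to 5, from adult female cattle, 5 heifers of Angus cross breeding with no treatment named, and the study asked why marbling is laid down later and more slowly than other fat. The tissue was whole fat, so every value mixes adipocytes with the vessels, nerves, immune cells and, in the intramuscular depot, muscle fibres around them.

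Retinol reaches tissues bound to RBP4 and is oxidised reversibly to retinaldehyde, a step that RDH10 drives forward and DHRS3 drives back. The ALDH1A enzymes then oxidise retinaldehyde irreversibly to retinoic acid, and the CYP26 enzymes hydroxylate retinoic acid and so clear it. CRABP2 hands retinoic acid to the nuclear receptors of the RAR family, which pair with RXR receptors on DNA. In adipose tissue retinoids are known both as stored vitamin and as regulators of adipocyte formation, and RBP4 is also secreted by adipocytes.

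Counts summed over the listed genes ranged from 9392739 to 14836808 in intramuscular libraries and from 13776094 to 17685678 in subcutaneous libraries. With edgeR's quasi-likelihood test over 12521 genes and a Benjamini-Hochberg adjusted p of 0.05 as threshold, intramuscular fat had 845 genes called higher and 688 called lower. The summed level of 8 adipocyte markers was 3985 to 12525 CPM (counts scaled to a common library size) in intramuscular libraries. In subcutaneous libraries it was 13468 to 20685 CPM, so the depots did not overlap. Of the 8 only FABP4 passed the test, beside 12.2% of all tested genes in either direction. With the animal as a block FABP4, LIPE and CIDEA passed, in a fit that calls 15.0% of all genes. ADIPOQ alone of the 8 ran the other way, at 743 ± 322 CPM in intramuscular and 649 ± 295 CPM in subcutaneous fat (SD, edgeR adjusted p 0.742). Of 12 contractile myofibre markers none had a value, so they were not analysed here, which does not show that their transcripts were absent. Of 50 other striated muscle genes 16 had values. Their sum was 2768, 800, 1552, 511 and 613 CPM in intramuscular replicates 1 to 5, and 38.9 to 83.0 CPM in subcutaneous libraries. Intramuscular replicate 1 thus had the highest muscle sum and the lowest adipocyte sum (3985 CPM). In bulk tissue, fewer cells of a type and less RNA per cell cannot be told apart, and this holds for each result that follows.

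In intramuscular fat CYP26B1, the enzyme that clears retinoic acid, fell to 0.302 times its subcutaneous level, and ALDH1A2, one of the enzymes that make it, rose 9.21-fold. The other 5 members did not pass the test. ALDH1A1, DHRS3 and RBP4, which were far more abundant than ALDH1A2, had negative log2 fold changes, and RDH10 and CRABP2 had positive ones. Thus 1 of the 7 members was higher and 1 lower, against 6.75% of all tested genes higher and 5.49% lower (12.2% in either direction). These same 2 members had depots whose libraries did not overlap, as did 12.9% of all tested genes. With the animal as a block, a fit that calls 15.0% of all genes, 1 member was higher and 3 lower, DHRS3 and ALDH1A1 being added. The median log2 fold change of the 7 was -0.56, beside -0.04 for all tested genes.

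**Figure D1:**
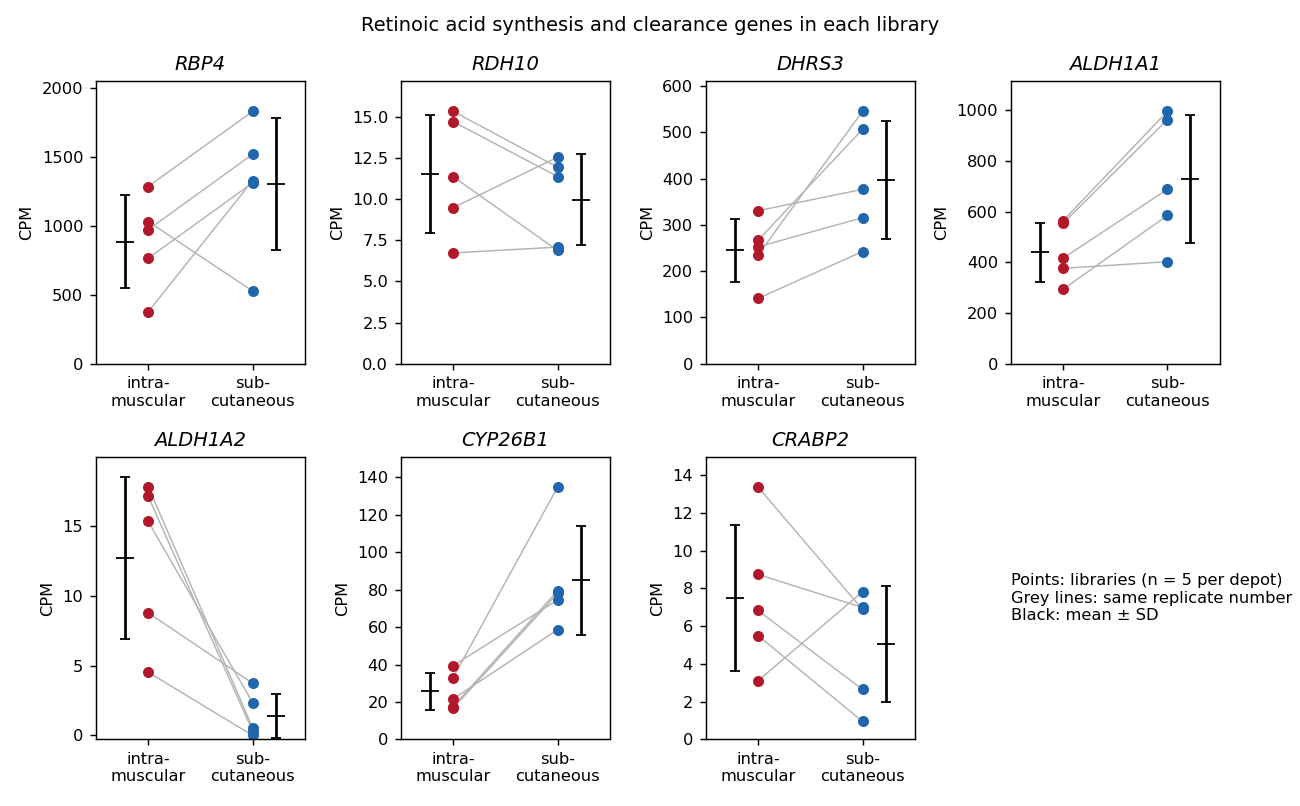
Level of each measured member in each library (CPM on linear axes), intramuscular left and subcutaneous right. Points are libraries, grey lines join the same replicate number and black marks give the mean and SD (n = 5 per depot). CYP26B1 and ALDH1A2 are the members whose depots do not overlap: CYP26B1 lies at 16.7 to 39.4 CPM in intramuscular fat and 58.6 to 134.9 CPM in subcutaneous fat.

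RBP4, the retinol carrier (ENSBTAG00000000442, chromosome 26, 14896080 to 14903110, reverse strand), had 376, 972, 764, 1031 and 1284 CPM in intramuscular replicates 1 to 5. In subcutaneous replicates 1 to 5 it had 1328, 1518, 1311, 527 and 1829 CPM. Subcutaneous replicate 4 lay within the intramuscular range and the other 4 subcutaneous libraries lay above it. The log2 fold change was -0.56 ± 0.35 (± SE, n = 5 each), with an unadjusted 95% interval of -1.31 to 0.19 and an edgeR adjusted p of 0.295. The same-numbered difference was negative in 4 of 5 pairs and positive in pair 4 (0.97 on the log2 scale), where the subcutaneous library was the lowest of its depot. TTR, transthyretin, which carries RBP4 in blood, averaged 1.58 ± 1.69 CPM in intramuscular and 6.60 ± 6.16 CPM in subcutaneous fat (SD, n = 5). TTR was lower in 5 of 5 pairs. Its edgeR adjusted p was 0.0979 (log2 fold change -2.08), and 0.0278 with the animal as a block. TTR depended on single libraries: the log2 fold change was -1.35 without subcutaneous replicate 1 (adjusted p 0.243) and -2.93 without intramuscular replicate 1 (0.0419).

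RDH10, which oxidises retinol to retinaldehyde (ENSBTAG00000020143, chromosome 14, 36628450 to 36655314, forward strand), had 14.7, 9.47, 6.72, 15.3 and 11.4 CPM in intramuscular libraries. It had 11.4, 12.5, 7.08, 11.9 and 6.87 CPM in subcutaneous libraries, and the depots overlapped throughout. Its log2 fold change was 0.21 ± 0.28 (± SE), with an unadjusted 95% interval of -0.40 to 0.82 and an edgeR adjusted p of 0.647. DHRS3, which reduces retinaldehyde back to retinol and is itself switched on by retinoic acid (ENSBTAG00000024493, chromosome 16, 41110223 to 41160245, forward strand), had 141, 253, 267, 331 and 235 CPM in intramuscular libraries. It had 242, 316, 506, 377 and 545 CPM in subcutaneous libraries. Within each pair the intramuscular library was the lower one in 5 of 5 cases, with log2 differences of -0.78, -0.32, -0.92, -0.19 and -1.22. The log2 fold change was -0.70 ± 0.26 (± SE, unadjusted 95% interval -1.26 to -0.13), with an edgeR adjusted p of 0.0938, and 0.0405 with the animal as a block. Beside it, the adipocyte marker sum was also lower in every pair, and its part in the difference was not tested.

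The ratio of DHRS3 to RDH10, each as CPM per kilobase of gene length, ranged from 7.28 to 30.1 in intramuscular and from 16.2 to 60.3 in subcutaneous libraries. It was higher in the intramuscular library of 1 of 5 pairs. DHRS3 exceeded RDH10 in all 10 libraries on this scale.

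Among the enzymes between retinol and retinaldehyde, 10 of the 18 on the list were tested, with a median log2 fold change of -0.28. By edgeR 0 were called in either direction, beside 12.2% of all tested genes. With the animal as a block 3 of the 10 were lower, DHRS3, RDH13 and SDR16C5, in a fit that calls 6.96% of all genes lower. RDH13, a mitochondrial retinol dehydrogenase, averaged 20.2 ± 4.35 CPM in intramuscular and 32.8 ± 12.6 CPM in subcutaneous fat (edgeR adjusted p 0.0876, and 0.0360 with the block). SDR16C5, an epidermal retinol dehydrogenase that was picked out only after its values were seen, was lower in 5 of 5 pairs at low levels, 2.38 ± 3.19 CPM in intramuscular and 8.02 ± 7.14 CPM in subcutaneous fat (edgeR adjusted p 0.258, and 0.0151 with the block). DHRS7, a related reductase, had the third smallest p of the list among the genes named by rule, 42.3 ± 12.8 CPM in intramuscular and 69.4 ± 32.9 CPM in subcutaneous fat (edgeR adjusted p 0.147). Its coordinates overlap those of PCNX4 on the opposite strand, so reads of these 2 genes may not be told apart.

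ALDH1A1 (ENSBTAG00000008103, chromosome 8, 49053228 to 49106706, reverse strand), a cytosolic enzyme that makes retinoic acid and is known to be abundant in fat, had 293, 553, 564, 376 and 416 CPM in intramuscular libraries. It had 585, 963, 996, 402 and 688 CPM in subcutaneous libraries. Subcutaneous replicate 4 fell inside the intramuscular range, and the other 4 lay above all intramuscular libraries. The log2 fold change was -0.72 ± 0.27 (± SE, unadjusted 95% interval -1.30 to -0.14), with an edgeR adjusted p of 0.0912. The difference had the same sign in 5 of 5 pairs, at -0.998, -0.80, -0.82, -0.10 and -0.73 on the log2 scale, and the adjusted p was 0.0351 with the animal as a block. The authors' deposited table, from DESeq2, gives an adjusted p of 0.0460.

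ALDH1A2 (ENSBTAG00000010119, chromosome 10, 52214465 to 52340304, forward strand), the form that makes most embryonic retinoic acid in the mouse, had 8.80, 15.3, 4.53, 17.1 and 17.8 CPM in intramuscular libraries. It had 3.74, 2.35, 0, 0.294 and 0.544 CPM in subcutaneous libraries. These rest on 94, 209, 62, 253 and 264 counts in intramuscular fat and on 58, 32, 0, 5 and 8 counts in subcutaneous fat. For subcutaneous replicate 3 a count of 0 allows up to 0.186 CPM (3 counts, counting error only). The depots did not overlap, as for 7.85% of all tested genes in this direction, although the gap between intramuscular replicate 3 and subcutaneous replicate 1 was small. The log2 fold change was 3.20 ± 0.81 (± SE, unadjusted 95% interval 1.45 to 4.95), with an edgeR adjusted p of 0.0238, and it ranked 165 in size among the 845 genes called higher. The paired differences were 1.20, 2.64, 5.08, 5.32 and 4.72. The fold change was 4.03 on the log2 scale without subcutaneous replicate 1, 3.87 with the animal as a block and 4.46 by limma voom, and the adjusted p stayed between 0.00985 and 0.0489 with each library left out in turn. Without intramuscular replicates 1 and 3 together, those with the highest muscle sums, the log2 fold change was 3.61 and the adjusted p 0.0554. That smaller fit calls 2.43% of all genes higher.

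Those 2 libraries had the lowest ALDH1A2 levels of their depot, 8.80 and 4.53 CPM, beside muscle sums of 2768 and 1552 CPM. The other 3 intramuscular libraries had 15.3 to 17.8 CPM beside muscle sums of 511 to 800 CPM. ALDH1A2 also marks mesothelium, the lining of body cavities, and of 8 mesothelial markers 3 had values and 2 were tested. KRT8, a keratin of simple epithelia, rose by 4.28 on the log2 scale (edgeR adjusted p 0.00362), with 9.92, 4.70, 3.43, 14.5 and 26.3 CPM in intramuscular libraries and 0.0587 to 1.61 CPM in subcutaneous libraries. UPK3B, the more specific marker, averaged 6.52 ± 0.387 CPM in intramuscular and 9.64 ± 2.73 CPM in subcutaneous fat (edgeR adjusted p 0.152). Summed, KRT8 and UPK3B spanned 10.4 to 32.4 CPM in intramuscular and 5.94 to 14 CPM in subcutaneous libraries, and their part in the ALDH1A2 result was not tested.

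**Figure D2:**
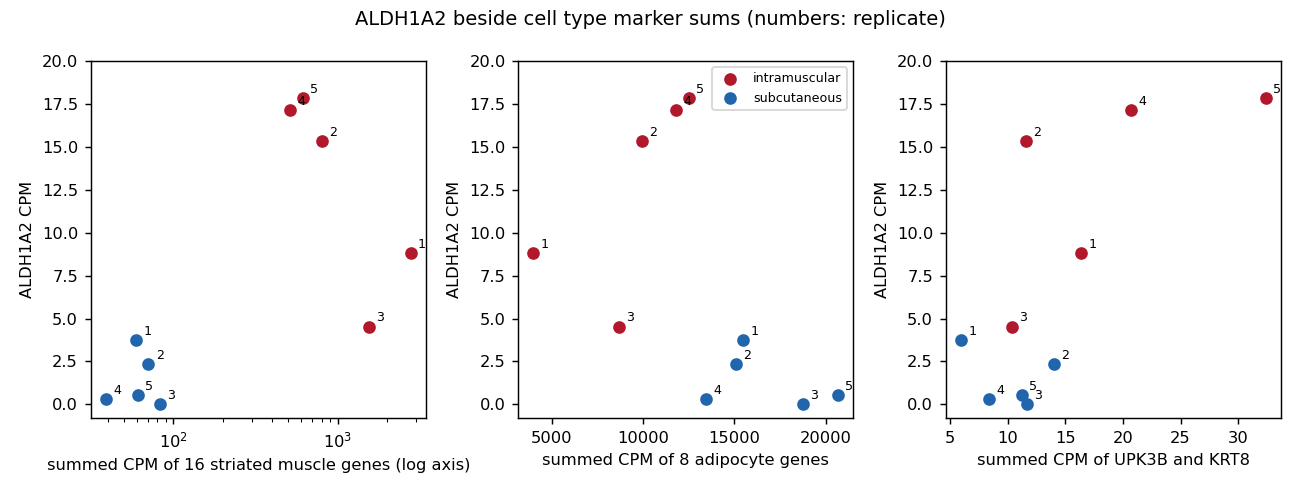
ALDH1A2 level (CPM) in each library against the summed CPM of 16 striated muscle genes (log axis), of 8 adipocyte genes and of UPK3B with KRT8, with replicate numbers beside the points. Among intramuscular libraries the lowest ALDH1A2 values, 8.80 and 4.53 CPM in replicates 1 and 3, stand beside the highest muscle sums. The part of muscle in this was not tested.

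The third enzyme of the family, ALDH1A3, averaged 34.7 ± 16.2 CPM in intramuscular and 57.2 ± 23.2 CPM in subcutaneous fat (SD, n = 5, edgeR adjusted p 0.199). AOX1, an aldehyde oxidase that can also act on retinaldehyde, averaged 312 ± 205 CPM in intramuscular and 356 ± 178 CPM in subcutaneous fat (edgeR adjusted p 0.783). Of the 5 genes on the synthesis list 4 were tested, and ALDH1A2 was the one called, beside 12.2% of all tested genes in either direction. Per kilobase of gene length, ALDH1A1 made up 93.4 ± 3.05% of the summed level of the 3 ALDH1A genes across intramuscular libraries and 93.7 ± 4.44% across subcutaneous ones (SD, n = 5). ALDH1A2 made up 0.382 to 2.04% in intramuscular and 0 to 0.290% in subcutaneous libraries. The rise of ALDH1A2 was therefore a change in a minor form at the RNA level. The summed level of the 3 was 229 ± 57.6 CPM per kilobase in intramuscular and 373 ± 116 CPM per kilobase in subcutaneous fat (SD, n = 5), lower in 5 of 5 pairs.

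CYP26B1, the retinoic acid hydroxylase (ENSBTAG00000012212, chromosome 11, 12376837 to 12396521, forward strand), had 16.7, 33.0, 39.4, 21.6 and 17.6 CPM in intramuscular libraries. It had 78.0, 134.9, 74.5, 58.6 and 79.4 CPM in subcutaneous libraries. Every subcutaneous library lay above every intramuscular one, as for 5.04% of all tested genes in this direction, and subcutaneous replicate 2 stood well above the rest of its depot. For CYP26B1 the log2 fold change was -1.73 ± 0.29 (± SE, unadjusted 95% interval -2.35 to -1.11), with an edgeR adjusted p of 0.00249. By p it ranked 22 among the 688 genes called lower, and by size 54. The paired differences were -2.22, -2.03, -0.92, -1.43 and -2.17 on the log2 scale. With each library left out in turn the log2 fold change ran from -1.94 to -1.50 and the adjusted p from 0.00237 to 0.00805, and without both muscle-rich libraries they were -1.82 and 0.00957. CYP26B1 was the only one of 4 listed clearance genes with a value, so CYP26A1, CYP26C1 and CYP2S1 were not analysed here.

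The summed ALDH1A level over the CYP26B1 level, both per kilobase, was 48.0, 46.2, 39.0, 50.4 and 68.8 in intramuscular replicates 1 to 5. It was 21.4, 19.4, 35.7, 20.6 and 23.6 in subcutaneous replicates 1 to 5. The ratio was thus higher in intramuscular fat in all 5 pairs with no overlap between depots. The summed ALDH1A level was itself lower in intramuscular fat in all 5 pairs. The higher ratio therefore restates the lower CYP26B1 level given above and is not a separate result. It is a ratio of RNA levels of selected genes and was given no test.

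**Figure D3:**
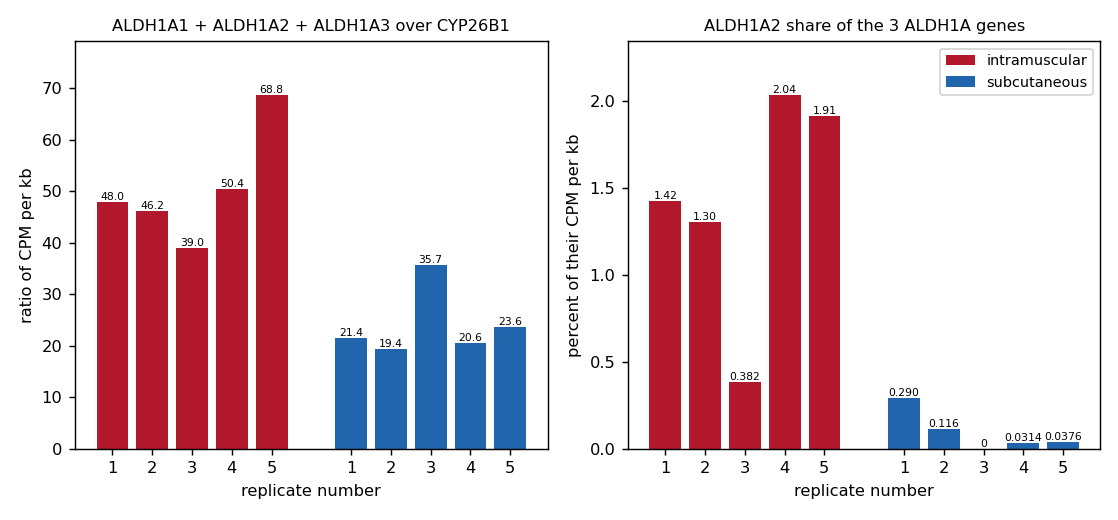
Bars give, for each library, the summed level of ALDH1A1, ALDH1A2 and ALDH1A3 divided by that of CYP26B1 (left, ratio of CPM per kilobase) and the percent of the summed ALDH1A level that is ALDH1A2 (right). The ratio is 39.0 to 68.8 in intramuscular and 19.4 to 35.7 in subcutaneous libraries, and the ALDH1A2 share is at most 2.04%.

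CRABP2, the carrier that delivers retinoic acid to its receptors (ENSBTAG00000005716, chromosome 3, 14124443 to 14130828, forward strand), had 6.83, 5.51, 13.4, 8.74 and 3.11 CPM in intramuscular libraries. It had 2.65, 0.953, 6.89, 6.99 and 7.83 CPM in subcutaneous libraries. The depots overlapped, and the paired difference was positive in 4 pairs and -1.29 on the log2 scale in pair 5. Its log2 fold change was 0.57 ± 0.52 (± SE, unadjusted 95% interval -0.56 to 1.69), with an edgeR adjusted p of 0.487. FABP5, a fatty acid carrier that can also bring retinoic acid to the receptor PPARD, fell to 451 ± 118 CPM in intramuscular fat, against 984 ± 278 CPM in subcutaneous fat (edgeR adjusted p 0.0111). The log2 fold change of FABP5 was -1.12 with all libraries and -0.92 without both muscle-rich libraries (adjusted p 0.102). The latter fit is smaller and calls 0.531% of all genes lower. Of the 9 listed carriers 4 were tested, with 0 higher and 1 lower, beside 6.75% and 5.49% of all tested genes.

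On a per-length scale the 7 members formed an abundant and a scarce group. In intramuscular fat the order of mean CPM per kilobase was RBP4 (440), ALDH1A1 (214), DHRS3 (128), RDH10 (7.93), CYP26B1 (4.77), CRABP2 (3.78) and ALDH1A2 (3.07). Only DHRS3 and RDH10, of the neighbours in that order, had ranges that did not overlap. In subcutaneous fat it was RBP4 (647), ALDH1A1 (354), DHRS3 (208), CYP26B1 (15.8), RDH10 (6.85), CRABP2 (2.54) and ALDH1A2 (0.334). There the ranges of DHRS3 and CYP26B1, of CYP26B1 and RDH10, and of RDH10 and CRABP2 did not overlap. CYP26B1 thus stood above RDH10 in all subcutaneous libraries, while the ranges of the same genes overlapped in intramuscular fat. RBP4 was among the most abundant of all tested genes, at rank 137 of 12521 in intramuscular and 101 in subcutaneous fat per kilobase, and ALDH1A2 stood at rank 9480 in intramuscular and 12106 in subcutaneous fat.

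The wider pathway was described through 9 lists of retinoid genes with 77 distinct symbols, of which 51 had values and 50 were tested. Of the 50, 2 were higher and 6 lower in intramuscular fat by edgeR, beside 6.75% higher and 5.49% lower of all tested genes, and the median log2 fold change was -0.15. With the animal as a block 2 were higher and 10 lower, beside 8.09% higher and 6.96% lower of all genes in that fit. Without both muscle-rich libraries 1 was higher (TGM2) and 1 lower (CYP26B1), beside 2.43% and 0.531% of all genes. The second transport gene, TTR, was described above, and 0 of 2 tested transport genes passed.

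**Figure D4:**
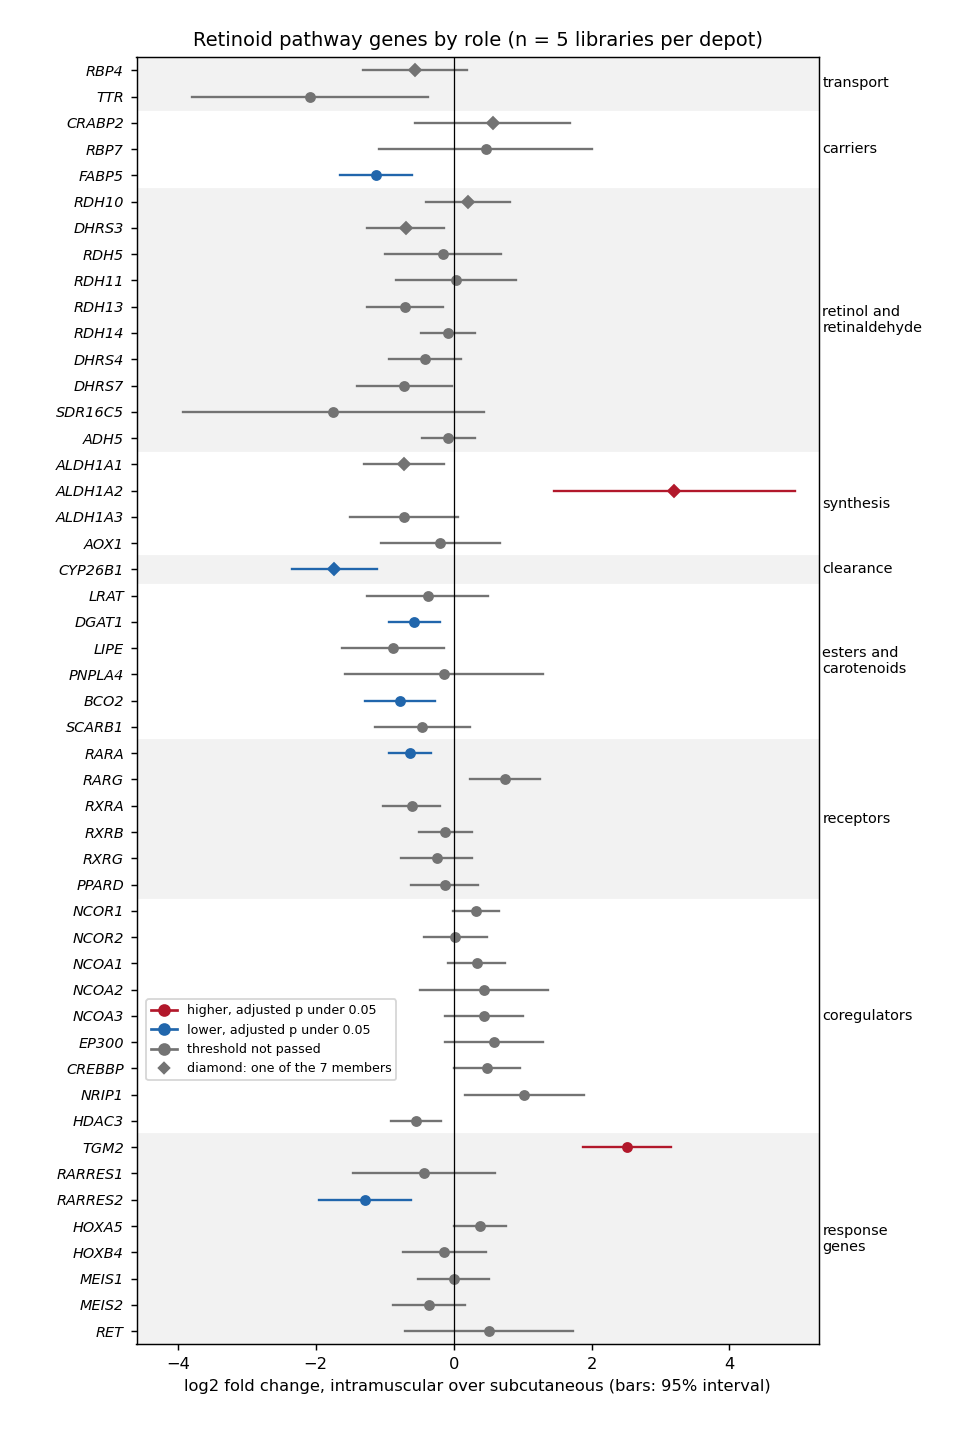
Log2 fold change of retinoid pathway genes, intramuscular over subcutaneous, with unadjusted 95% intervals, ordered by role from transport at the top to response genes at the bottom. ALDH1A2 (3.20) and TGM2 (2.51) are the genes called higher, and CYP26B1 (-1.73) has the most negative value of the 6 called lower.

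Among the 8 genes of retinyl ester storage and carotenoid cleavage, 6 were tested. All 6 had negative log2 fold changes (median -0.51), as did 6628 of all 12521 tested genes (median -0.04). By edgeR 0 were higher and 2 lower, beside 6.75% and 5.49% of all tested genes. DGAT1, which esterifies retinol as well as diacylglycerol, averaged 76.2 ± 7.69 CPM in intramuscular and 113 ± 26.2 CPM in subcutaneous fat (log2 fold change -0.57 ± 0.17, edgeR adjusted p 0.0461). BCO2, a mitochondrial enzyme that cleaves carotenoids, averaged 12.6 ± 3.60 CPM in intramuscular and 21.7 ± 4.05 CPM in subcutaneous fat (-0.78 ± 0.23, 0.0466). The depots did not overlap for either gene, but both calls were marginal. With the block the adjusted p was 0.0512 for DGAT1 and 0.0501 for BCO2, and with single libraries left out it reached 0.0980 and 0.0955. LRAT, the main retinol esterifying enzyme of liver, averaged 2.68 ± 1.04 CPM in intramuscular and 3.50 ± 1.43 CPM in subcutaneous fat (edgeR adjusted p 0.561). LIPE, hormone-sensitive lipase, which releases retinol from its esters in adipocytes and was counted above among the adipocyte markers, averaged 1081 ± 526 CPM in intramuscular and 1985 ± 483 CPM in subcutaneous fat (edgeR adjusted p 0.106, and 0.0452 with the block).

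Of the receptors, 6 of 7 were tested, and RARA was the one called, beside 12.2% of all tested genes in either direction. RARA, the retinoic acid receptor alpha, had 73.0, 66.8, 56.6, 54.2 and 64.5 CPM in intramuscular libraries and 93.6, 102.5, 97.9, 82.5 and 112 CPM in subcutaneous libraries. The depots did not overlap (log2 fold change -0.63 ± 0.14, edgeR adjusted p 0.0142). The log2 fold change was -0.60 without intramuscular replicate 3 (adjusted p 0.0509) and -0.66 without both muscle-rich libraries (0.0683). The latter fit is smaller and calls 0.531% of all genes lower. RARG, the gamma form, ran the other way at 36.4 ± 6.63 CPM in intramuscular and 21.8 ± 6.89 CPM in subcutaneous fat (0.74 ± 0.23, edgeR adjusted p 0.0544). RXRA, the common partner receptor, averaged 428 ± 31.6 CPM in intramuscular and 652 ± 160 CPM in subcutaneous fat (-0.61 ± 0.19, 0.0534). RARB, a receptor gene that is itself a retinoic acid target, was not analysed here. Of the coregulators 9 of 9 were tested and 0 were called (median log2 fold change 0.44), and those with the smallest p were the corepressor enzyme HDAC3 (-0.54, edgeR adjusted p 0.0514, and 0.0294 by DESeq2), NRIP1 (1.02, 0.105) and CREBBP (0.49, 0.159).

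Of 20 genes known to respond to retinoic acid, 14 were tested, with a median log2 fold change of -0.07. By edgeR 1 was higher and 2 lower, beside 6.75% and 5.49% of all tested genes. TGM2, transglutaminase 2, a crosslinking enzyme long known to be induced by retinoic acid, had 286, 351, 321, 303 and 493 CPM in intramuscular libraries. It had 92.9, 62.5, 34.1, 37.2 and 80.4 CPM in subcutaneous libraries, and the depots did not overlap. Its log2 fold change was 2.51 ± 0.29 (± SE), with an edgeR adjusted p of 0.00023. The genes called lower were CYP26B1, itself on this list, and RARRES2, which encodes the adipokine chemerin. RARRES2 averaged 73.3 ± 11.2 CPM in intramuscular and 179 ± 102 CPM in subcutaneous fat (-1.29 ± 0.31, edgeR adjusted p 0.0188). Leaving out intramuscular replicate 3 gave a log2 fold change of -1.28 (adjusted p 0.0538). Leaving out both muscle-rich libraries gave -1.23 (0.136), in a smaller fit that calls 0.531% of all genes lower. The response genes therefore had no common direction: DHRS3 and RARRES1 had negative values (-0.70 and -0.43), CRABP2 and HOXA5 positive ones (0.57 and 0.38), and none of these 4 passed the test. Smooth muscle cells of vessels are among the cells that make TGM2. Of 7 pericyte and smooth muscle markers 5 were tested, and the smooth muscle genes ACTA2 and MYH11 were not analysed here. By edgeR 2 were higher, RGS5 (log2 fold change 3.03) and CSPG4 (1.20), and 0 lower, beside 6.75% and 5.49% of all tested genes. NOTCH3 (0.61), PDGFRB (-0.55) and KCNJ8 (-0.14) did not pass. The 5 genes summed to 1020 to 1729 CPM in intramuscular and 598 to 971 CPM in subcutaneous libraries. The endothelial list had 0 higher and 3 lower of 8 genes, and the macrophage list 0 higher and 4 lower of 7, beside the same shares. The part of pericytes, smooth muscle cells or any other cell type in the TGM2 result was not tested.

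Other marker lists, which were not tested as lists, had called members beside 6.75% of all tested genes higher and 5.49% lower, but sums that overlapped between depots for progenitors, endothelium, macrophages and Schwann cells. Of 8 genes each, the progenitor and endothelial lists had 0 higher and 3 lower, with sums of 1698 to 2668 CPM in intramuscular and 2149 to 4173 CPM in subcutaneous libraries for progenitors. The endothelial sum was 1718 to 2227 CPM in intramuscular and 2169 to 4074 CPM in subcutaneous libraries. Of 7 macrophage genes 0 were higher and 4 lower (158 to 297 CPM in intramuscular, 156 to 815 CPM in subcutaneous libraries). Of 8 Schwann cell genes 6 were higher and 1 lower, with a median log2 fold change of 3.02. Their sum did not follow that direction (487 to 901 CPM in intramuscular, 680 to 1500 CPM in subcutaneous libraries), so the sum alone does not describe these genes. Of 8 skin epithelium genes only KRT10 had a value, at 3.00 to 4.87 CPM in intramuscular and 5.23 to 14.9 CPM in subcutaneous libraries. No tested marker in these lists was at 0 in every library of a depot, apart from 5 of the 16 striated muscle genes in subcutaneous fat. The part of these cell types in the members' differences was not tested.

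Within depots the members did not vary as 1 unit. After the depot mean of log2 CPM was taken off, Pearson's r between ALDH1A1 and CYP26B1 over the 10 libraries was 0.766, that between ALDH1A1 and RBP4 0.648, and that between ALDH1A2 and CRABP2 -0.746. These are descriptions over 10 libraries from 5 animals that also share depth and tissue makeup. Each r of ALDH1A2, here and below, also leans on subcutaneous counts of 58, 32, 0, 5 and 8. Its log2 CPM there ran from -2.85 to 1.96, set in part by the prior count of 2. The r values that follow were picked as the highest over all genes with a symbol and a mean of at least 5 CPM. With 10 libraries, values this high can arise from that choice alone, and they were given no p. On the same measure the genes most like each member were ACOT4, INTS12 and PPARA for ALDH1A1 (r of 0.949, 0.940 and 0.939). They included MAMDC4 and SLC24A3 for ALDH1A2 (0.968 and 0.941), and ARMH3, CLUAP1 and COL8A1 for CYP26B1 (0.97, 0.94 and 0.93). For DHRS3 they were ANGPTL8, REXO2 and RIDA (0.993, 0.977 and 0.974), and for RBP4 AZGP1, CDKN1C and CYP2D14 (0.963, 0.955 and 0.944). AK4, ADAT1 and INTS3 were most like RDH10 (0.955, 0.921 and 0.900), and IMPDH2, PSMG1 and SMCO4 most like CRABP2 (0.890, 0.883 and 0.876). ANGPTL8, a secreted inhibitor of lipoprotein lipase made by adipocytes and liver, had the highest value of all. It averaged 447 ± 229 CPM in intramuscular and 960 ± 568 CPM in subcutaneous fat (edgeR adjusted p 0.139, and 0.0297 with the animal as a block). Of the genes named here as most like a member, REXO2 alone was called between depots (-0.73, edgeR adjusted p 0.0476), joined with the block by ANGPTL8, RIDA (-1.11, 0.00855) and PPARA (0.79, 0.0366).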

How the data were processed

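Whole intramuscular and subcutaneous fat was taken from 5 heifers, 5 libraries per depot, and each library was placed by its title. The tools, per the submitters' processing notes, included Trimmomatic 0.39, STAR 2.7.11a, DESeq2 1.42.0 and featureCounts 2.0.2. No source used here gives the build of the genome or whether counting used strand, so coordinates are those of the deposited table, and none of the 7 members overlaps another listed gene. The authors deposited raw counts for 12674 genes, together with gene lengths in bases. The authors' table also holds log2 fold changes, and its deposited p-values are raw and adjusted.

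CPM was computed from the counts with TMM-scaled library sizes, and log2 CPM used a prior count of 2. Depots were compared by the quasi-likelihood test of edgeR 4.0.16 (R 4.3.3) without a block, two-sided, after filterByExpr by depot had kept 12521 genes, over which p-values were adjusted (Benjamini-Hochberg). SEs are the log2 fold change over the root of the F statistic. The step was tested on simulated counts with known changes. Alternatives were RLE scaling, library totals alone, no filter, DESeq2 1.42.0, limma 3.58.1 (voom), a replicate block, each library left out, and both muscle-rich libraries left out.

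Replicate numbers were taken as animals: the design text has both depots from the same 5 heifers, and deviations from the depot means of same-numbered libraries correlated across genes at 0.102, 0.181, 0.176, 0.161 and 0.237. For numbers 1 to 5 the highest value with a library of another number was 0.0945, 0.109, 0.109, 0.114 and 0.114. Number 1 was thus barely set apart. The members and gene lists were chosen with earlier results of these data known. Named genes were the 8 members, every called gene of each pathway list or else its 3 of smallest p, and for each member the 3 genes with the highest within-depot r, some of which are not reported here. ADIPOQ, FABP4, CIDEA, LRAT, ALDH1A3, AOX1, LIPE, SDR16C5, RARG, RXRA, RARRES1, HOXA5, KRT8, UPK3B and KRT10 were named outside or beside that rule after their values were seen. The same holds for RGS5, CSPG4, NOTCH3, PDGFRB and KCNJ8.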

Additional observations from a re-analysis of the deposited data

Results flagged for a closer look

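CYP26B1 in subcutaneous replicate 2 (134.9 CPM) lay apart from the other 4 subcutaneous libraries (58.6 to 79.4 CPM). Its gap to the next library was 0.727 of the depot's range, above Dixon's critical value of 0.71 for 5 libraries. Without that library the log2 fold change was -1.50 and the edgeR adjusted p 0.00531.

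RARRES2 in intramuscular replicate 5 (93.3 CPM) lay above the other 4 intramuscular libraries (66.4 to 69.9 CPM), with a gap of 0.869 of the range. Chance flags about 1 in 20 sets of libraries, and 26 sets were examined.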

How the results depend on the processing

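None of the 19 members and pathway genes named by rule changed sign under any alternative run. CYP26B1 and TGM2 passed the threshold, and CRABP2, RBP4 and RDH10 missed it, in all 17 alternative fits. ALDH1A2 rose by 3.61 on the log2 scale without both muscle-rich libraries (adjusted p 0.0554) and passed in the other 16 fits. By DESeq2 ALDH1A1 (-0.71, adjusted p 0.0461), TTR (0.0371) and HDAC3 (0.0294) passed. RARA (0.0649), DGAT1 and BCO2 did not pass with library totals alone, nor DGAT1 by limma voom. With the replicate block, which pairs the depots by animal, ALDH1A1 (-0.69), DHRS3 (-0.69), TTR, RDH13, SDR16C5, LIPE, CIDEA, PPARA, ANGPTL8 and RIDA passed and DGAT1, BCO2 and KRT10 did not. The block changed no other call among the pathway genes, the genes most like a member, and FABP4, KRT8 and UPK3B. Leaving out 1 library, the log2 fold change ran from -0.88 to -0.58 for ALDH1A1 (passing without subcutaneous replicate 4, adjusted p 0.0397) and from -0.83 to -0.55 for DHRS3 (passing without subcutaneous replicate 1, 0.0430). HDAC3 passed without subcutaneous replicate 1 or 4, CREBBP without subcutaneous replicate 1 and TTR without intramuscular replicate 1.

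Over all genes 1369 were higher and 1171 lower by DESeq2, 306 and 67 without both muscle-rich libraries, and 494 to 1008 and 263 to 887 with 1 library left out (494 higher without intramuscular replicate 3; 369, 373, 263 and 445 lower without intramuscular replicates 1, 2, 3 and 5, and 361 without subcutaneous replicate 3). The lower calls numbered 330 with library totals alone, a scaling that moves the median of all genes by 0.17 on the log2 scale and makes 77.7% of calls higher, against 55.1% with TMM. Pathway genes lower numbered 3 with library totals alone, 11 by DESeq2, 10 with the replicate block, 1 without both muscle-rich libraries and 3 (without intramuscular replicate 3) to 8 with 1 library left out. Pathway genes higher numbered 1 without both muscle-rich libraries and 2 to 4 (without subcutaneous replicate 1) with 1 library left out. The causes were not tested. Subcutaneous ALDH1A2 rests on 0 to 58 counts a library, which limits the precision of its fold change.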
